A study of Mus musculus with 41 samples.

Results

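Transcript levels of 10 genes of fibroblast growth factor (FGF) signalling were followed in a mouse embryonic endocardial cell line, MEEC, while the Notch pathway was switched on or off. The genes were chosen by symbol: the receptor gene Fgfr1, the ligand genes Fgf5, Fgf2 and Fgf7, the sprouty genes Spry1, Spry2 and Spry4, the phosphatase gene Dusp6, and the ETS factor genes Etv4 and Etv5. They are 10 of the 14133 genes that the deposited expression tables list. All 10 were listed in the feeder co-culture and inhibitor co-culture tables, and 9 in the recombinant-ligand table, which does not list Fgf7. Every listed gene reached a signal of 1 in at least 3, 4 and 3 libraries of the tables, in the order just given.

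The 41 RNA-seq libraries form 13 groups in 3 experiments, all from the one wild-type MEEC line. In the first experiment MEEC grew on a layer of OP9 cells, a mouse stromal line, that expressed the Notch ligand Dll4, the Notch ligand Jag1, or GFP as the control, for 24 h or 6 h, with 3 libraries per group. MEEC were seeded at 25% confluency for 24 h and at 50% for 6 h, over OP9 at 90%. In the second, MEEC were kept for 24 h with 20 µM RO4929097, which inhibits γ-secretase and so the release of the Notch intracellular domain, or with its vehicle DMSO. They were then placed on OP9-GFP for 6 h, with 4 libraries per group. In the third, MEEC grew without OP9 cells for 38 h, the last 14 h of them serum-free with DMSO or RO4929097. The recombinant DLL4 carried a His tag and the recombinant JAG1 was an Fc fusion. The 5 groups, of 3 libraries each, grew on wells coated with recombinant DLL4 plus 20 µM RO4929097 (rDLL4+RO), DLL4 plus DMSO (rDLL4), JAG1 plus RO4929097 (rJAG1+RO), JAG1 plus DMSO (rJAG1), or with DMSO and no ligand (DMSO). Whether the libraries within a group are separate cultures is not stated, and p-values therefore measure only how these libraries vary, which may be technical variation.

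FGF ligands bind receptor tyrosine kinases such as FGFR1 together with heparan sulfate chains on the cell surface, and the receptors signal through RAS to the kinase ERK. ERK activity switches on transcription of the ETS factors Etv4 and Etv5 and of its own brakes, the sprouty proteins, which dampen signalling to RAS and ERK, and DUSP6, a phosphatase that inactivates ERK. In the developing heart FGF signals pass between endocardium, myocardium and epicardium, and Notch is active in the endocardium. Spry2, Spry4, Etv4, Etv5 and Dusp6 are therefore widely used as transcript readouts of FGF to ERK activity, although other growth factors that act through ERK move them too.

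Start-site windows of 3 of the genes are shown because their levels moved in the recombinant-ligand experiment: Spry2, which holds an ETS core, Etv5, whose second start holds 2 RBPJ cores, and Fgf2, which holds none of the motifs searched. RBPJ is the DNA-binding partner of the Notch intracellular domain. Each sequence is from RefSeq, build GRCm38.p6, and runs from 250 bases before the transcript start to 50 bases after it, 5′ to 3′ on the gene's strand. Capitals mark the motifs. RefSeq windows were matched for 7 of the 10 genes, 8 windows in all.
Spry2, chr14:105896770-105897069, minus strand: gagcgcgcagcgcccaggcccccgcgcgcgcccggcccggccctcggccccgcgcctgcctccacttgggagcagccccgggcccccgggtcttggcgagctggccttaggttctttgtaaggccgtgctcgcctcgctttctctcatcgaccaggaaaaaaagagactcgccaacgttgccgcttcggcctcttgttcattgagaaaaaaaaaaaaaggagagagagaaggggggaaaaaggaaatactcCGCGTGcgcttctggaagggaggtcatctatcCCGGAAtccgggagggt
Etv5 second start, chr16:22438319-22438618, minus strand: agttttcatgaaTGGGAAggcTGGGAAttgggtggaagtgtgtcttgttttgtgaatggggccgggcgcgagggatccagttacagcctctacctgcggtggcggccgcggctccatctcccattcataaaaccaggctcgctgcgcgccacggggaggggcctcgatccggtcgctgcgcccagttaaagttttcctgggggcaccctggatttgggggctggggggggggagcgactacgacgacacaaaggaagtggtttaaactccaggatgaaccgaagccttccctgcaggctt
Fgf2, chr3:37348403-37348702, plus strand: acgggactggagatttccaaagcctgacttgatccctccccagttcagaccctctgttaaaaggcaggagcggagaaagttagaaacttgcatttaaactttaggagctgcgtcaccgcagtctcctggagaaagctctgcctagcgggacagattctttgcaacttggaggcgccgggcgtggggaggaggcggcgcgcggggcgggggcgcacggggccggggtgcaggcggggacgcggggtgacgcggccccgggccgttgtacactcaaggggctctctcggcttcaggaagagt

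The motifs were searched on both strands, and no match overlaps another in the windows shown. The RBPJ core TGGGAA occurs in 25.56% of 32851 windows of the same length, the ETS core CCGGAA in 14.9%, the E-box CACGTG that Hey and Hes repressors bind in 7.15%, and their C-site CACGCG in 9.27%. The Spry2 window holds 1 ETS core and 1 C-site, the C-site written from its other strand. Of the other windows, that of Fgf5 holds 1 ETS core, that of Spry1 holds 1 C-site, that of Fgf7 holds 1 C-site and 1 RBPJ core, and those of Dusp6 and the first Etv5 start hold none of these letters. A match describes the letters of the window and is not evidence of binding.

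Values are the deposited normalized signal, which scales reads to library size. Whole reads could be recovered for all 41 libraries. Summed over the listed genes alone, they amounted to 14.1 to 16.8 M reads per library in the feeder experiment. The sums were 19.4 to 25.2 M in the inhibitor experiment and 11.2 to 34.2 M in the recombinant experiment. A count of 3 reads corresponds to a signal of 0.0859 to 0.266. The Notch target Hey1 averaged 5.89 ± 0.64 over rDLL4, 16.0 ± 3.05 over rJAG1 and 0.772 ± 0.0376 in DMSO (SD, n = 3 each), and all 5 Notch targets checked were called higher over each recombinant ligand. All 5 were also called lower with RO4929097 than over the same recombinant ligand alone. Of these, Heyl reached a signal of 1 only over ligand without RO4929097. Its highest signals were 0.101 in DMSO, 0.157 in rDLL4+RO and 0.174 in rJAG1+RO. In the feeder experiment its highest signals over OP9-GFP were 0.160 at 24 h and 0.602 at 6 h. Heyl is thus listed only through groups where it is high, and its calls add no separate check. Over OP9-Jag1 4 of them were called higher at 24 h and 3 at 6 h, and over OP9-Dll4 3 at 24 h and 0 at 6 h. The fit with a block for the replicate number called 5 and 4 over OP9-Jag1, and 4 and 4 over OP9-Dll4, at 24 h and at 6 h. The 3 calls over OP9-Jag1 at 6 h (Hey1, Hey2 and Nrarp) each held in only 1 of the 6 fits that left out a library. Of 12 endothelial and endocardial markers, 7, 6 and 6 were listed in the 3 tables, with Tek and Cd34 among them, while Pecam1, Cdh5, Tie1, Emcn and Erg were listed in none. In bulk RNA, fewer cells of a type and less RNA per cell cannot be told apart. In co-cultures, any reads from OP9 cells cannot be told apart from those of MEEC. Dll4 was listed in none of the 3 tables. Jag1 averaged 49.2 ± 10.1 over OP9-Dll4, 51.1 ± 4.97 over OP9-Jag1 and 35.1 ± 7.32 over OP9-GFP at 6 h. At 24 h these were 59.6 ± 1.91, 65.6 ± 3.37 and 42.8 ± 3.31. The share of OP9 reads was not tested.

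Some libraries stood apart before any comparison was made. In the recombinant experiment the third DMSO library had a Col3a1 signal of 2721, against 4717 and 5091 in the other DMSO libraries, and a Tek signal of 46.8, against 97.1 and 99.9. In the inhibitor experiment both libraries numbered 1 were high in the stromal markers Pdgfrb and Cxcl12. Their 9 listed stromal markers together summed to 5842 with RO4929097 and 7135 with DMSO, against 5549 to 6869 in the other libraries. In the feeder experiment the 3 libraries numbered 2 at 6 h had Col3a1 signals of 3591 to 3939, against 1880 to 2415 in the other 6 h libraries.

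On recombinant ligand, Fgf2, Spry2, Spry4 and the ETS factor genes Etv4 and Etv5 were lower over rJAG1 than in DMSO. Fgf2, Spry2 and Spry4 were also lower over rDLL4, and all 3 were higher with RO4929097 than over the same ligand alone. No group had RO4929097 without a ligand. An effect of RO4929097 itself and a loss of the ligand effect therefore cannot be told apart here. The comparisons of rDLL4 and of rJAG1 with DMSO share the DMSO libraries, and each comparison of a ligand with its RO4929097 group shares the ligand libraries. Differences are limma fold changes of log2(signal + 1), which understates changes of low genes, fitted over all 15 libraries, and a gene is called at an adjusted p under 0.05.

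**Figure D1:**
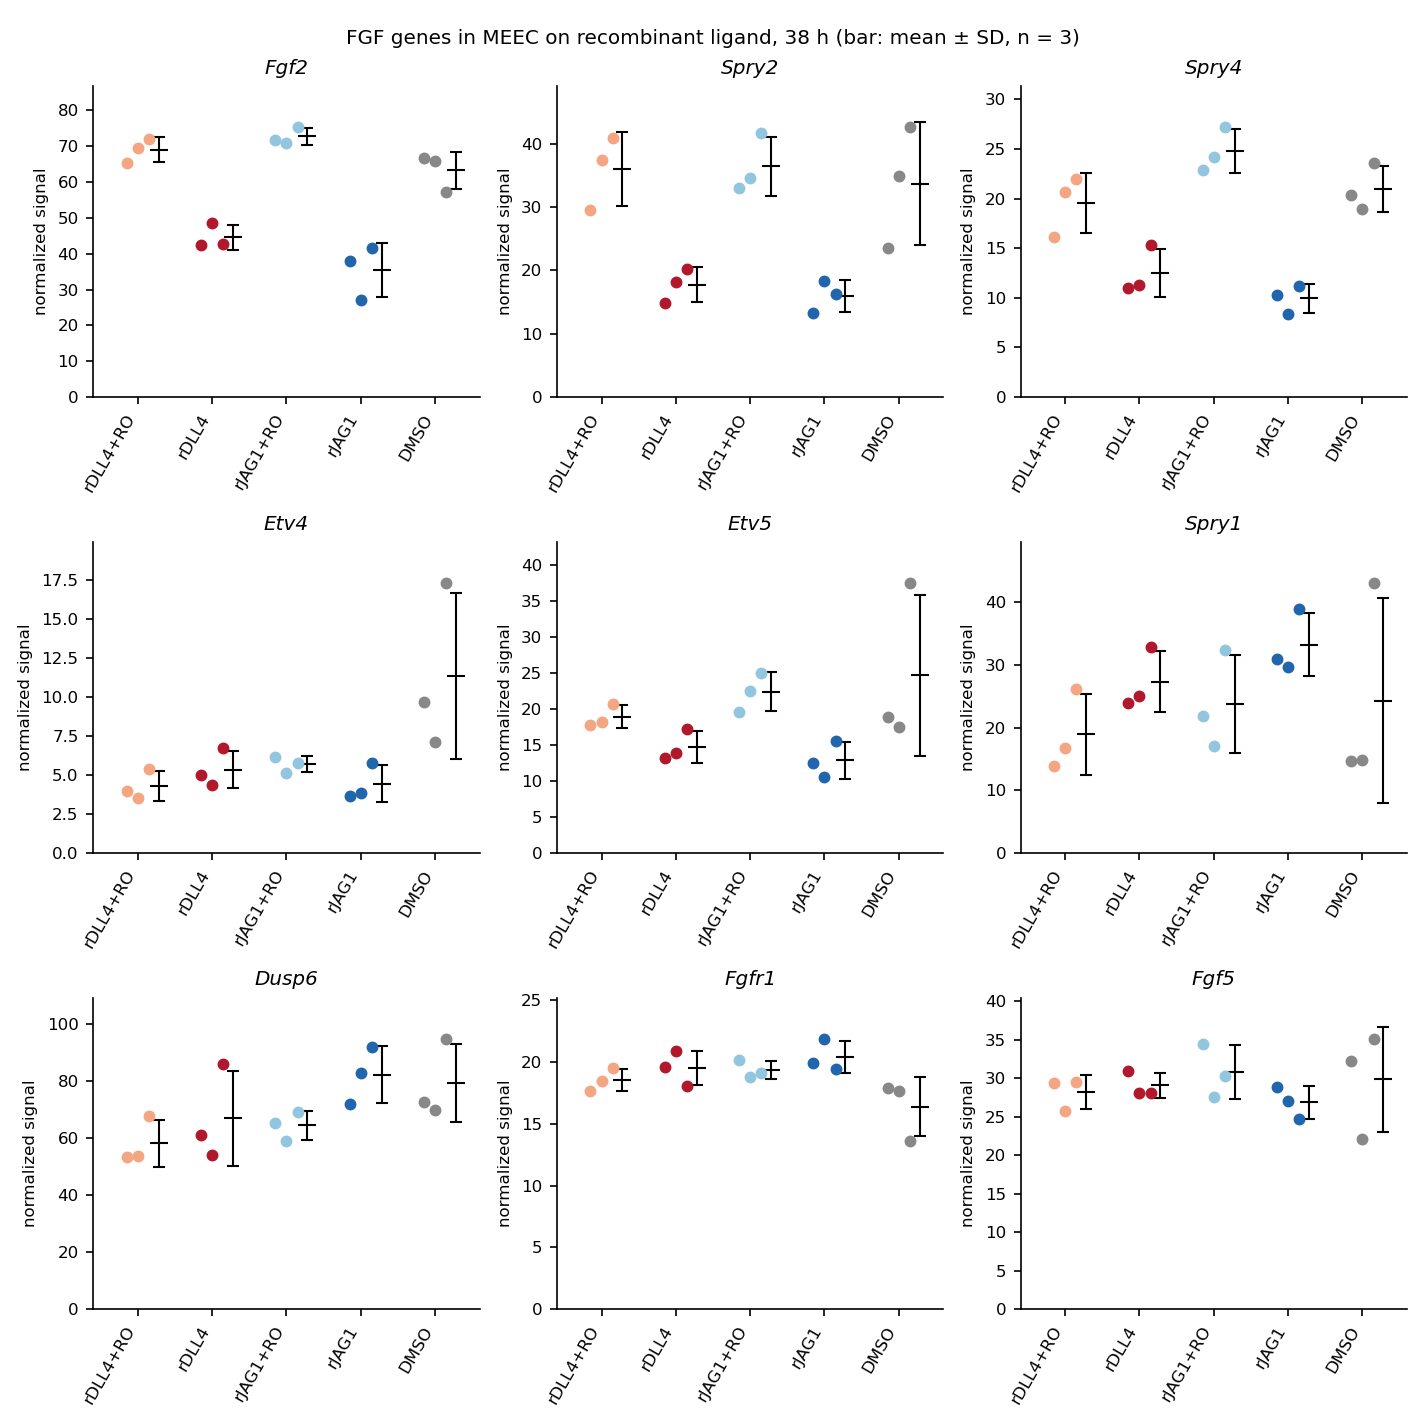
Normalized signal (y axis, linear) of the 9 listed FGF genes in each library of the recombinant-ligand experiment, by group (x axis). Points are libraries and bars are mean ± SD (n = 3). Fgf2, Spry2 and Spry4 are low over rDLL4 and rJAG1, while the third DMSO library is the highest of the 15 for Fgf5, Spry1, Spry2, Dusp6, Etv4 and Etv5.

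Fgfr1, the receptor, had signals of 19.6, 20.9 and 18.1 over rDLL4, 20.0, 21.9 and 19.5 over rJAG1, and 17.9, 17.7 and 13.7 in DMSO. Every ligand library was above every DMSO library, but neither difference was called: 0.25 ± 0.10 (SE, limma, adjusted p = 0.32) for rDLL4 and 0.31 ± 0.10 (adjusted p = 0.0734) for rJAG1 on the log2 scale. With the replicate number as a block, Fgfr1 was called for rJAG1 (limma, adjusted p = 0.0346). Without the third DMSO library its rJAG1 difference was 0.19 (adjusted p = 0.197), and it was not called with the block either (0.20, adjusted p = 0.111).

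Fgf2 encodes a ligand of FGFR1 that leaves cells without a signal peptide. Its signal was 42.3, 48.5 and 42.8 over rDLL4, 37.9, 27.1 and 41.5 over rJAG1, and 66.8, 65.8 and 57.2 in DMSO. All 6 ligand libraries lay below all 3 DMSO libraries. Fgf2 fell by 0.50 over rDLL4 (log2 scale, SE 0.12, limma, adjusted p = 0.0325) and by 0.83 over rJAG1 (SE 0.12, adjusted p = 0.000257). Fgf5, another ligand gene, averaged 29.1 ± 1.67 over rDLL4, 26.9 ± 2.13 over rJAG1 and 29.9 ± 6.82 in DMSO (SD, n = 3 each), and was not called.

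Fgf2 lies at chr3:37348346-37410108 on the plus strand (GRCm38), and 4 annotated genes overlap it: on the same strand Gm43439 over 56521 bases, and on the opposite strand Nudt6 over 5199 bases, Gm42923 over 2896 and Fgf2os over 1395. The strand setting of the authors' counting is not given in the sources used here, so reads of Fgf2 and of overlapping genes cannot be told apart. The same limit holds for Fgf7, Fgfr1, Spry1 and Spry4, which genes on the opposite strand overlap. These are Fam227b over 56528 bases of Fgf7, Gm16159 over 7423 of Fgfr1 and Gm42922 over 710 of Spry1. Spry4 is overlapped by Gm27804 over 119 bases and Gm27369 over 71. Of the 4 genes that overlap Fgf2, the deposited tables list Nudt6 and Gm42923. Nudt6 had group means of 1.75 to 3.18 across the 13 groups, and Gm42923 of 7.65 to 13.3, against 18.9 to 72.8 for Fgf2 itself. On recombinant ligand Gm42923 averaged 8.81 ± 1.74 over rDLL4, 7.65 ± 4.28 over rJAG1 and 9.49 ± 1.78 in DMSO (SD, n = 3 each). Neither neighbour was called by limma in any comparison, and with the block Gm42923 was called for 24 h minus 6 h over OP9-Jag1 (0.37, adjusted p = 0.022).

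Spry2 encodes a sprouty protein that restrains receptor tyrosine kinase signalling. Its signal was 14.8, 18.2 and 20.2 over rDLL4, 13.3, 18.3 and 16.3 over rJAG1, and 23.5, 34.8 and 42.7 in DMSO. Ligand and DMSO libraries did not overlap, although the DMSO libraries were spread widely. Spry2 fell by 0.86 over rDLL4 (log2 scale, SE 0.19, limma, adjusted p = 0.0192) and by 1.00 over rJAG1 (SE 0.19, adjusted p = 0.00247).

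Spry4, the sprouty gene at chr18:38586247-38601415 on the minus strand, had 11.0, 11.3 and 15.3 over rDLL4, 10.3, 8.35 and 11.2 over rJAG1, and 20.4, 19.0 and 23.5 in DMSO. Its highest ligand library, 15.3 over rDLL4, was below its lowest DMSO library. Spry4 fell by 0.71 over rDLL4 (log2 scale, SE 0.15, limma, adjusted p = 0.0124) and by 1.01 over rJAG1 (SE 0.15, adjusted p = 0.000276). Without the third DMSO library the rJAG1 differences were -0.90 for Fgf2 (adjusted p = 0.000216), -0.81 for Spry2 (adjusted p = 0.00743) and -0.93 for Spry4 (adjusted p = 0.00099).

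Spry1 is the remaining sprouty gene. Its signal was 23.9, 25.1 and 32.9 over rDLL4, 30.9, 29.7 and 38.9 over rJAG1, and 14.7, 14.9 and 43.1 in DMSO. The third DMSO library was the highest of all 15, the other DMSO libraries lay below every ligand library, and the groups overlapped. The rJAG1 difference was 0.61 ± 0.34 (SE, limma, adjusted p = 0.331) with it, 1.102 without it (adjusted p = 0.00758), and was called with the replicate block (adjusted p = 0.0397, and 0.000182 without the third DMSO library). The rDLL4 difference was 0.33 ± 0.34 (adjusted p = 0.883).

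Etv4, an ETS factor gene that ERK switches on, had 5.01, 4.35 and 6.70 over rDLL4, 3.67, 3.87 and 5.79 over rJAG1, and 9.68, 7.11 and 17.3 in DMSO. All ligand libraries were below all DMSO libraries. Etv4 fell by 1.12 over rJAG1 (log2 scale, SE 0.25, limma, adjusted p = 0.0075), and by 0.79 without the third DMSO library (adjusted p = 0.0171). The rDLL4 difference was -0.89 ± 0.25 (adjusted p = 0.0644). It was called with the replicate block (adjusted p = 0.00301, and 0.0068 without the third DMSO library) and without the second DMSO library (-1.16, adjusted p = 0.0184), and was -0.57 without the third (adjusted p = 0.136).

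Etv5, the closest relative of Etv4 on the list, had 13.2, 13.9 and 17.3 over rDLL4, 12.5, 10.5 and 15.6 over rJAG1, and 18.9, 17.6 and 37.6 in DMSO. The third DMSO library had the highest signal of all 15, and the remaining gap was narrow, from 17.3 over rDLL4 to 17.6 in DMSO. Etv5 fell by 0.82 over rJAG1 (log2 scale, SE 0.22, limma, adjusted p = 0.0262). The difference was -0.49 without the third DMSO library (adjusted p = 0.0459), and not called without the first (adjusted p = 0.0731) or second rJAG1 library (adjusted p = 0.115). For rDLL4 it was -0.63 ± 0.22 (adjusted p = 0.175), -0.30 without the third DMSO library (adjusted p = 0.338), and called with the block (adjusted p = 0.0159, and 0.0208 without the third DMSO library).

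Dusp6, the ERK phosphatase gene, was not called over either ligand. Its signal was 61.1, 54.0 and 85.7 over rDLL4, 71.8, 82.9 and 91.8 over rJAG1, and 72.6, 69.9 and 94.8 in DMSO. The groups overlapped, with a difference of -0.25 ± 0.16 for rDLL4 (SE, limma, adjusted p = 0.675) and 0.06 ± 0.16 for rJAG1 (adjusted p = 0.885). The 95% confidence interval of the rJAG1 difference ran from -0.28 to 0.40.

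In all, 5 of the 9 listed FGF genes were called over rJAG1, all lower, where 9.58% of the 13407 genes tested were called in either direction and 4.76% were called lower. Over rDLL4 3 were called, all lower, where 3.5% of all genes were called and 1.05% were called lower. With the replicate block the counts were 7 of 9 over rJAG1, where 15.1% of all genes were called, and 5 of 9 over rDLL4, where 6.47% were. With only the groups compared in the fit, Etv4 (adjusted p = 0.0728) and Etv5 (0.166) were not called over rJAG1, and Fgf2 (0.0527), Spry2 (0.13) and Spry4 (0.0711) were not called over rDLL4, which leaves 3 and 0 genes called. The median log2 difference of the 9 genes was -0.82 over rJAG1, against 0.00142 for all genes, and -0.50 over rDLL4, against -0.000514. Without the third DMSO library all 3 rDLL4 calls held, with Fgf2 at an adjusted p of 0.017, Spry2 at 0.0465 and Spry4 at 0.0314. Without the first rDLL4 library 0 of the 9 genes were called over rDLL4 (Spry2 adjusted p = 0.109, Spry4 0.0768, Fgf2 0.14), and without the second 1 was (Fgf2, with Spry2 at 0.0532 and Spry4 at 0.062). Fgf2 was also not called over rDLL4 without the first DMSO (adjusted p = 0.128), second DMSO (0.117) or the third rDLL4 library (0.124), nor Spry2 without the second DMSO library (0.0731). Shares of all genes called are not given for the fits of only the groups compared or with a library left out.

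Setting the ligands against each other, 0 of the 9 FGF genes were called between rDLL4 and rJAG1 by limma or by edgeR, where limma called 0.231% of all genes. At an unadjusted p under 0.05 there was 1 of 9, Fgf2, where 7.15% of all genes had one. Fgf2 was 0.34 higher over rDLL4 than over rJAG1 on the log2 scale (95% confidence interval 0.08 to 0.59, unadjusted p = 0.0128, limma adjusted p = 0.458). The intervals were -0.26 to 0.55 for Spry2, -0.01 to 0.61 for Spry4, -0.30 to 0.75 for Etv4 and -0.28 to 0.66 for Etv5. No difference between the ligands was shown for these genes, and the intervals reach differences of up to 0.75. Between rDLL4+RO and rJAG1+RO 0 of 9 were called by limma or edgeR, where 0% of all genes were, and Spry4 alone had an unadjusted p under 0.05, where 1.42% of all genes had one. Its log2 difference was -0.33 (95% confidence interval -0.65 to -0.02).

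Fgf2, Spry2 and Spry4 were higher with RO4929097 than without it on both ligands. Fgf2 had 65.3, 69.6 and 72.1 in rDLL4+RO, against 42.3, 48.5 and 42.8 over rDLL4, and 71.7, 71.0 and 75.5 in rJAG1+RO, against 37.9, 27.1 and 41.5 over rJAG1. No library with RO4929097 overlapped its ligand group. Fgf2 was higher by 0.62 ± 0.12 with rDLL4 (log2 scale, SE, limma, adjusted p = 0.00297) and by 1.04 ± 0.12 with rJAG1 (adjusted p = 1.74e-05).

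Spry2 had 29.5, 37.5 and 40.9 in rDLL4+RO, against 14.8, 18.2 and 20.2 over rDLL4, and 32.9, 34.5 and 41.7 in rJAG1+RO, against 13.3, 18.3 and 16.3 over rJAG1. The groups did not overlap, and Spry2 was higher by 0.98 ± 0.19 with rDLL4 (log2 scale, SE, limma, adjusted p = 0.00311) and by 1.14 ± 0.19 with rJAG1 (adjusted p = 0.00048). Spry4 had 16.1, 20.7 and 21.9 in rDLL4+RO, against 11.0, 11.3 and 15.3 over rDLL4, and 22.9, 24.2 and 27.2 in rJAG1+RO, against 10.3, 8.35 and 11.2 over rJAG1. It was higher by 0.61 ± 0.15 with rDLL4 (adjusted p = 0.0135) and by 1.24 ± 0.15 with rJAG1 (adjusted p = 2.06e-05). The rDLL4 call for Spry4 was lost without the first or second rDLL4 library (limma, adjusted p = 0.0708 and 0.06) and without the second or the third rDLL4+RO library (0.0626 and 0.0719).

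Of the ETS genes, Etv5 was called higher with RO4929097 on rJAG1. Etv5 had 19.6, 22.6 and 25.1 in rJAG1+RO, against 12.5, 10.5 and 15.6 over rJAG1, and was higher by 0.76 ± 0.22 on the log2 scale (SE, limma, adjusted p = 0.024). That call was lost without the first or second rJAG1 library (adjusted p = 0.0617 and 0.102) or the second or the third rJAG1+RO library (0.0698 and 0.0956). With rDLL4 the Etv5 difference was 0.35 ± 0.22 (adjusted p = 0.381), with 17.8, 18.2 and 20.8 in rDLL4+RO, against 13.2, 13.9 and 17.3 over rDLL4.

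Etv4 was not called between RO4929097 and its absence on either ligand. It had 3.97, 3.55 and 5.38 in rDLL4+RO, 5.01, 4.35 and 6.70 over rDLL4, 6.16, 5.16 and 5.79 in rJAG1+RO, and 3.67, 3.87 and 5.79 over rJAG1. Its differences were -0.26 ± 0.25 for rDLL4+RO minus rDLL4 (SE, limma, adjusted p = 0.579) and 0.32 ± 0.25 for rJAG1+RO minus rJAG1 (adjusted p = 0.413). Set against the 9.68, 7.11 and 17.3 of DMSO, Etv4 was lower in rDLL4+RO, with a difference of -1.15 ± 0.25 (adjusted p = 0.0311), and -0.83 without the third DMSO library (adjusted p = 0.0765). In rJAG1+RO it was -0.80 ± 0.25 (adjusted p = 0.179), called with the block (adjusted p = 0.0125) and without the second DMSO library (adjusted p = 0.0484). Without the third DMSO library that difference was -0.48 (adjusted p = 0.378), and with the block as well -0.59 (adjusted p = 0.0382).

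With rJAG1, 4 of the 9 listed FGF genes were called between rJAG1+RO and rJAG1, all higher, where 18.4% of all genes tested were called and 9.58% were called higher. With rDLL4, 3 were called, all higher, where 10.7% were called and 4.91% were called higher. The block gave 5 of 9 for rJAG1+RO minus rJAG1, where 27.1% of all genes were called. Dusp6 had 65.4, 58.7 and 68.9 in rJAG1+RO, against 71.8, 82.9 and 91.8 over rJAG1, a difference of -0.34 ± 0.16 (SE, limma, adjusted p = 0.155) that was called with the replicate block (adjusted p = 0.00983). Spry1 had 21.8, 17.1 and 32.4 in rJAG1+RO, against 30.9, 29.7 and 38.9 over rJAG1, and was not called (adjusted p = 0.338). Against DMSO, Etv4 alone of the 9 was called in rDLL4+RO, where 1.4% of all genes were, and 0 were called in rJAG1+RO by limma or edgeR, where limma called 0.94%. At an unadjusted p under 0.05 there were 2 of 9 in rJAG1+RO, Fgfr1 and Etv4, where 9.58% of all genes had one. The block gave 2 of 9 in rDLL4+RO, where 4.38% of all genes were called, and 1 of 9 in rJAG1+RO, where 2.9% were. Dusp6 was also lower in rDLL4+RO than in DMSO with the block (-0.43, adjusted p = 0.0126, and -0.41 with 0.0455 without the third DMSO library). The Etv4 call in rDLL4+RO was also lost without the first DMSO library (adjusted p = 0.069) or the first (0.102), second (0.16) or the third (0.0587) rDLL4+RO library.

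Markers of the cells themselves moved beside these genes, and not in one direction. The summed signal of the 6 listed endothelial and endocardial markers was 162 to 173 in rDLL4+RO, 116 to 146 over rDLL4, 143 to 165 in rJAG1+RO, 97.7 to 111 over rJAG1 and 129 to 193 in DMSO. Tek and Cd34 make up most of this sum. Cd34 was called lower over rDLL4 (log2 difference -0.58) and rJAG1 (-0.93) than in DMSO, and higher in rDLL4+RO (0.37) and rJAG1+RO (0.67) than over the ligand alone. Nfatc1, an endocardial transcription factor gene, was instead called lower with RO4929097 on both ligands. It had 2.58, 1.85 and 1.62 in rDLL4+RO, against 4.64, 5.36 and 6.62 over rDLL4, and 2.44, 2.00 and 2.31 in rJAG1+RO, against 5.98, 4.57 and 7.33 over rJAG1. Kdr, a VEGF receptor gene, and Eng were also called lower in rJAG1+RO than over rJAG1 (-0.55 and -0.73). Of the 6 markers, 1 was called higher and 1 lower for rDLL4+RO minus rDLL4, and 2 higher and 3 lower for rJAG1+RO minus rJAG1. Of all genes, 10.7% and 18.4% were called in these comparisons.

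The 9 listed stromal markers summed to 8424 to 9271 in rDLL4+RO, 7495 to 8717 over rDLL4, 8437 to 9261 in rJAG1+RO, 7003 to 7850 over rJAG1 and 5882 to 9020 in DMSO, although these wells held no OP9 cells. The collagen genes Col1a1 and Col3a1 make up most of this sum and differed in opposite directions. Col1a1 was called higher over rDLL4 (0.53) and rJAG1 (0.59) than in DMSO, and lower in rDLL4+RO (-0.72) and rJAG1+RO (-0.72) than over the ligand alone. Col3a1 had 4723, 5275 and 4805 in rJAG1+RO, against 2772, 2937 and 2565 over rJAG1, and was called higher (0.84). In DMSO it had 4717, 5091 and 2721, and the rJAG1 minus DMSO difference of -0.55 was not called (limma, adjusted p = 0.0674). Of the 9 markers, 2 were called higher and 2 lower for rDLL4+RO minus rDLL4, and 4 higher and 3 lower for rJAG1+RO minus rJAG1. Of all genes, 10.7% and 18.4% were called in these comparisons. The part of these shifts in the FGF gene results was not tested.

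**Figure D2:**
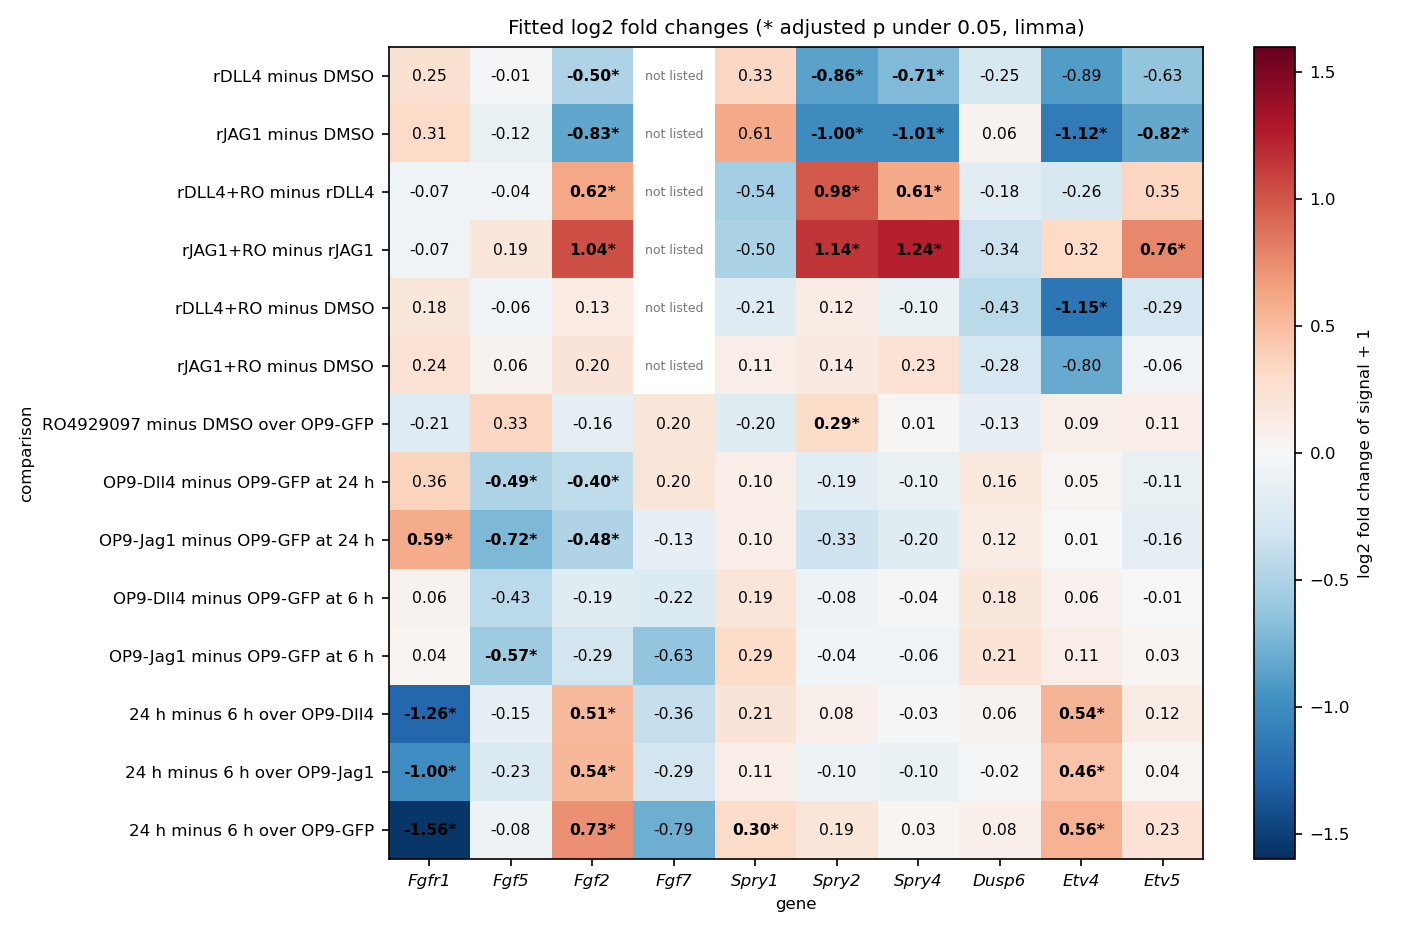
Fitted log2 fold change of signal + 1 (colour and number) for each FGF gene (x axis) in 14 comparisons (y axis). An asterisk marks an adjusted p under 0.05 by limma. Fgf2, Spry2 and Spry4 are negative over both recombinant ligands and positive when RO4929097 is added, and Fgfr1 is negative at 24 h against 6 h over every feeder.

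Among the other genes of the pathway, the ligand gene Fgf10 was lower on both recombinant ligands. Fgf10 averaged 7.46 ± 0.45 over rDLL4, 4.35 ± 0.804 over rJAG1 and 12.5 ± 1.39 in DMSO (SD, n = 3 each). It fell by 0.67 over rDLL4 (log2 scale, SE 0.12, limma, adjusted p = 0.00424) and by 1.34 over rJAG1 (SE 0.12, adjusted p = 2.74e-06), and was 0.67 higher over rDLL4 than over rJAG1 (adjusted p = 0.0323). With RO4929097 it averaged 13.7 ± 0.196 in rDLL4+RO and 14.4 ± 1.08 in rJAG1+RO. Of the 9 other FGF ligand and binding-protein genes listed in this table, 1 of 9 was called over each ligand, Fgf10 in both cases, where 3.5% of all genes were called over rDLL4 and 9.58% over rJAG1. Over rJAG1 that share is near that of all genes. Beside Fgf10, rDLL4+RO minus rDLL4 had Fgf16 called higher (0.55) and Fgf18 (-0.47) and Fgfbp3 (-0.71) lower. For rJAG1+RO minus rJAG1, Fgf16 (0.73) and Fgf9 (0.98) were called higher and Fgfbp3 (-0.61) lower. Of all genes, 10.7% and 18.4% were called in these comparisons.

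The co-receptor list holds the other FGF receptors, heparan sulfate proteoglycans and the enzymes that make their chains. Of its 24 listed genes, 5 were called higher and 6 lower over rJAG1, and 3 higher and 3 lower over rDLL4, where 9.58% of all genes were called over rJAG1 and 3.5% over rDLL4. The glypican gene Gpc3 averaged 97.2 ± 5.31 over rDLL4, 75.4 ± 5.98 over rJAG1 and 154 ± 14.4 in DMSO, while Gpc6, another glypican, averaged 3.00 ± 0.727, 4.55 ± 0.842 and 0.702 ± 0.0047 in the same groups. Every gene listed here reached a signal of 1 in at least 3 libraries, and Gpc6 also averaged below 1 in rJAG1+RO (0.746 ± 0.161). It may therefore be listed only through groups where it is high, although it is counted among the genes called higher. The syndecan gene Sdc1 averaged 70.4 ± 3.15 over rDLL4, 90.6 ± 13.5 over rJAG1 and 52.8 ± 2.79 in DMSO. The sulfotransferase gene Hs6st1 averaged 58.7 ± 5.36 over rJAG1 and 107 ± 11.7 in DMSO (limma, adjusted p = 0.000167).

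With RO4929097, Gpc3 rose to 231 ± 5.68 in rDLL4+RO and 239 ± 7.42 in rJAG1+RO, and Sdc1 fell to 43.6 ± 2.34 in rDLL4+RO and 41.5 ± 1.36 in rJAG1+RO. Co-receptor genes were then called higher in 5 cases and lower in 9 for rDLL4+RO minus rDLL4, and higher in 6 and lower in 9 for rJAG1+RO minus rJAG1, where 10.7% and 18.4% of all genes were called. Ext1, which builds the heparan sulfate chain, averaged 115 ± 7.72 in rDLL4+RO and 196 ± 17.7 over rDLL4, and 114 ± 6.68 in rJAG1+RO and 212 ± 16.1 over rJAG1.

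Of 25 listed genes that carry the signal between receptor and ERK, 1 was called over rJAG1, where 9.58% of all genes were. Map2k1, which encodes the kinase MEK1 above ERK, averaged 139 ± 8.18 over rJAG1 and 113 ± 3.00 in DMSO, a rise of 0.30 ± 0.06 (log2 scale, SE, adjusted p = 0.0048), and 100.3 ± 3.70 in rJAG1+RO. Of 24 other ERK response and feedback genes, 0 were called higher and 4 lower over rJAG1: Spred2 and Spred1, which like the sprouties restrain RAS, Ier3, an immediate-early gene, and Dusp4, a nuclear ERK phosphatase. These 4 of 24 stand beside 4.76% of all genes called lower. Spred2 averaged 26.4 ± 4.86 over rJAG1 and 38.9 ± 5.51 in DMSO (adjusted p = 0.0147), and Dusp4 averaged 36.7 ± 11.4 and 64.3 ± 22.1 (adjusted p = 0.0457). Spred1 and Ier3 had adjusted p of 0.0237 and 0.0388 (limma). Results without the third DMSO library are not given for these 4 genes. Over rDLL4 the fit called none of the 25 transduction genes and none of these 24, where 3.5% of all genes were called.

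With Jag1-expressing feeders at 24 h the ligand genes Fgf5 and Fgf2 were lower and the receptor gene Fgfr1 was higher, while none of the sprouty and ETS factor genes was called. The comparisons with OP9-Jag1 and OP9-Dll4 share the OP9-GFP libraries, and the fit runs over all 18 libraries of the experiment.

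**Figure D3:**
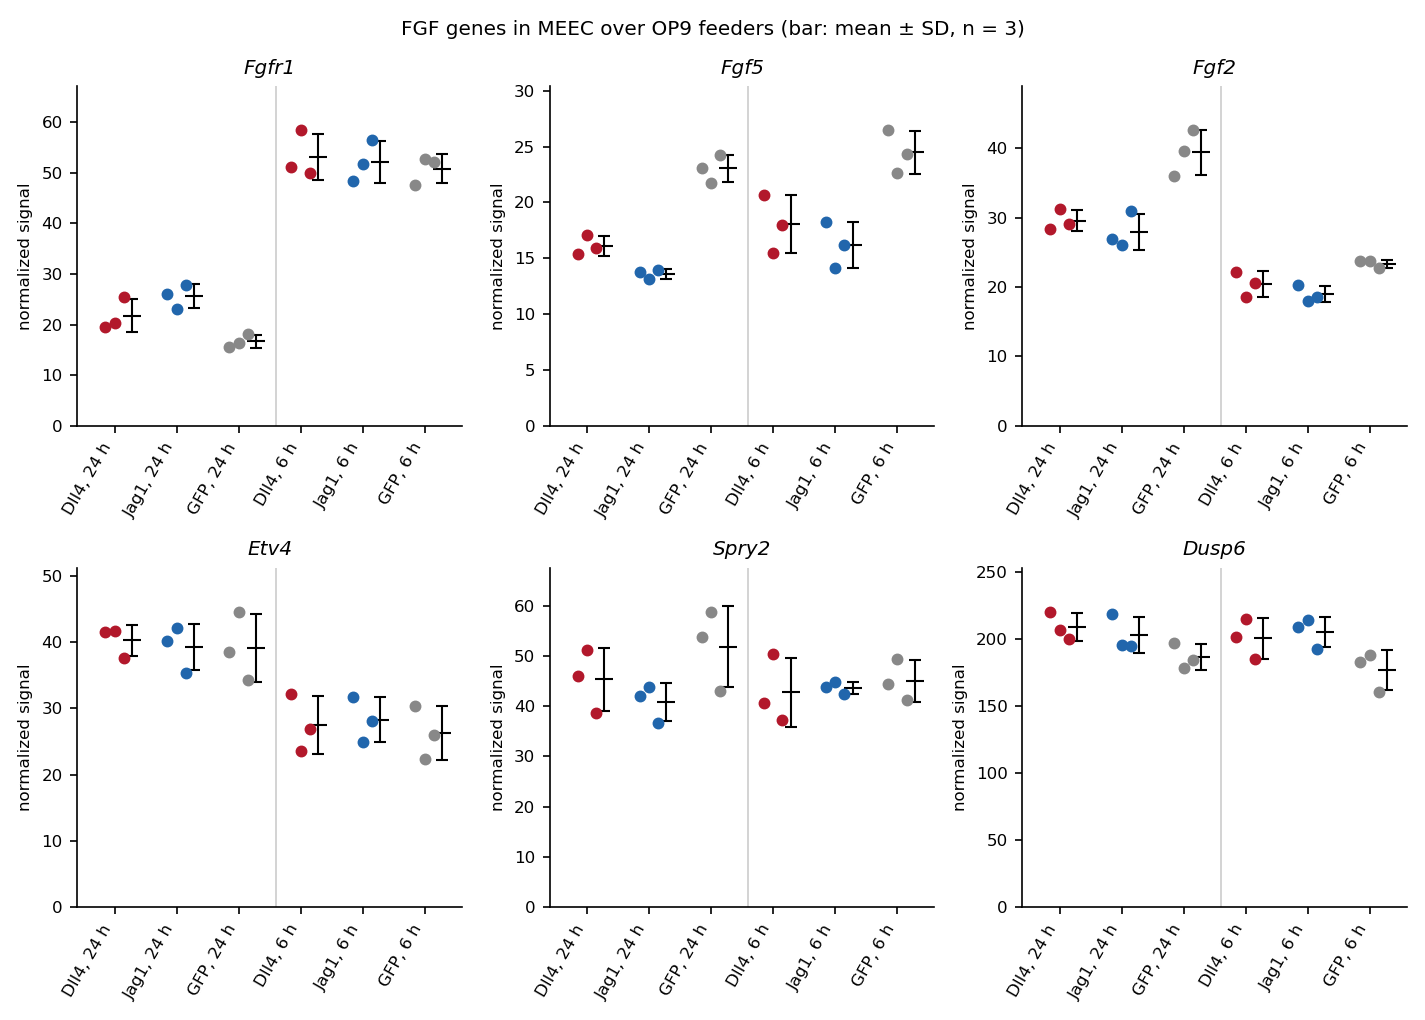
Normalized signal (y axis, linear) of 6 FGF genes in each feeder co-culture library, by feeder at 24 h and at 6 h (x axis, the line divides the times). Points are libraries and bars are mean ± SD (n = 3). Fgf5 is lower over OP9-Dll4 and OP9-Jag1 than over OP9-GFP, and Fgfr1 is lower and Fgf2 higher at 24 h.

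Fgfr1 had 19.5, 20.3 and 25.4 over OP9-Dll4, 26.0, 23.1 and 27.8 over OP9-Jag1, and 15.5, 16.4 and 18 over OP9-GFP at 24 h. Every library with a ligand was above every OP9-GFP library. Fgfr1 was higher by 0.59 ± 0.10 over OP9-Jag1 (log2 scale, SE, limma, adjusted p = 0.00501), a call that held with each library left out in turn. Over OP9-Dll4 the difference was 0.36 ± 0.10 (adjusted p = 0.196), called with the replicate block (adjusted p = 0.00268).

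Fgf5 had 15.3, 17.1 and 15.9 over OP9-Dll4, 13.8, 13.1 and 14.0 over OP9-Jag1, and 23.1, 21.8 and 24.2 over OP9-GFP at 24 h. The 3 groups did not overlap, and the OP9-GFP libraries stood clear of both ligands. Fgf5 fell by 0.49 over OP9-Dll4 (log2 scale, SE 0.10, limma, adjusted p = 0.049) and by 0.72 over OP9-Jag1 (SE 0.10, adjusted p = 0.00211).

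Fgf2 had 28.3, 31.2 and 29.1 over OP9-Dll4, 26.9, 26.1 and 30.9 over OP9-Jag1, and 36.0, 39.5 and 42.6 over OP9-GFP at 24 h. The libraries with ligand lay below all OP9-GFP libraries. Fgf2 fell by 0.40 over OP9-Dll4 (log2 scale, SE 0.09, limma, adjusted p = 0.049) and by 0.48 over OP9-Jag1 (SE 0.09, adjusted p = 0.00613). Both OP9-Dll4 calls sit at the threshold: leaving out any one of the 6 libraries ended them, with adjusted p of 0.0592 to 0.247 for Fgf5 and 0.0565 to 0.263 for Fgf2, and edgeR on recovered reads gave 0.0538 and 0.0507. The OP9-Jag1 calls held in all 6 such fits.

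At 24 h, 3 of the 10 FGF genes were called over OP9-Jag1, where 2.02% of the 13886 genes tested were called, and 2 over OP9-Dll4, where 0.511% were. With the replicate block these became 6 of 10 against 10.9% of genes, and 4 of 10 against 5.82%. The block added Spry2 (-0.33, adjusted p = 0.000944), Spry4 (-0.20, adjusted p = 0.0303) and Dusp6 (0.12, adjusted p = 0.0279) for OP9-Jag1, and Fgfr1 and Dusp6 (0.16, adjusted p = 0.0059) for OP9-Dll4. Spry2 had 42.0, 43.8 and 36.7 over OP9-Jag1, against 53.7, 58.8 and 43.0 over OP9-GFP, and the groups overlapped at 43.0 to 43.8.

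The other FGF genes were not called over the feeders at 24 h. Etv4 averaged 40.2 ± 2.35 over OP9-Dll4, 39.2 ± 3.47 over OP9-Jag1 and 39.1 ± 5.15 over OP9-GFP (SD, n = 3 each). Etv5 averaged 44.7 ± 2.58, 43.3 ± 4.02 and 48.5 ± 3.71, and Spry1 57.4 ± 3.66, 57.8 ± 7.39 and 53.6 ± 5.25, in the same order. Fgf7, a ligand gene typical of mesenchyme, was near the detection limit, with 0.92, 2.03 and 0.873 over OP9-Dll4, 1.80, 0.654 and 0.177 over OP9-Jag1, and 0.956, 0.97 and 0.862 over OP9-GFP.

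At 6 h Fgf5 was the one FGF gene called, over OP9-Jag1, where 0.101% of all genes were. It had 20.7, 15.5 and 18 over OP9-Dll4, 18.2, 14.1 and 16.2 over OP9-Jag1, and 26.5, 22.7 and 24.3 over OP9-GFP, and the libraries with ligand were all below those with GFP. Fgf5 fell by 0.57 over OP9-Jag1 (log2 scale, SE 0.10, limma, adjusted p = 0.0435). Leaving out any one of the 6 libraries ended the call (adjusted p = 0.0563 to 0.19), as did leaving out the 3 libraries numbered 2 (-0.54, adjusted p = 0.0727), while the replicate block gave 6.35e-05, and 0.00288 without those libraries. Over OP9-Dll4 the difference was -0.43 ± 0.10 (adjusted p = 0.542), called with the block (adjusted p = 0.00299).

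Over OP9-Dll4 at 6 h, 0 of the 10 FGF genes were called by limma or by edgeR, where limma called 0.0072% of all genes, and 3 of 10 had an unadjusted p under 0.05 (Fgf5, Fgf2 and Dusp6), where 3.88% of all genes had one. The replicate block raised the counts to 4 of 10 over OP9-Jag1, against 3.36% of genes, and 2 of 10 over OP9-Dll4, against 1.17%. The added genes were Fgf2 (-0.29, adjusted p = 0.0223), Spry1 (0.29, adjusted p = 0.00498) and Dusp6 (0.21, adjusted p = 0.00113) for OP9-Jag1, and Fgf5 and Dusp6 (0.18, adjusted p = 0.0114) for OP9-Dll4. Dusp6 had 201, 215 and 185 over OP9-Dll4, 209, 214 and 193 over OP9-Jag1, and 183, 188 and 160 over OP9-GFP at 6 h, so the groups of OP9-Dll4 and OP9-GFP overlapped. With the block and without the 3 libraries numbered 2, Spry1 (adjusted p = 0.0206) and Dusp6 (0.0115) were still called over OP9-Jag1 and Fgf2 (0.198) was not, and over OP9-Dll4 neither Fgf5 (0.0755) nor Dusp6 (0.126) was.

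Between the feeder ligands, 0 of the 10 genes were called at 24 h or at 6 h by limma or edgeR, where limma called 0.0288% of all genes at 24 h and 0% at 6 h. At an unadjusted p under 0.05 there were 2 at 24 h and 0 at 6 h, where 1.92% and 1.86% of all genes had one. At 24 h Fgfr1 was -0.23 over OP9-Dll4 relative to OP9-Jag1 (95% confidence interval -0.45 to -0.02, unadjusted p = 0.0354) and Fgf5 was 0.23 (0.01 to 0.45, unadjusted p = 0.0424). Fgf2 differed by 0.08 (-0.10 to 0.26). These are log2 differences, and none passed adjustment over all genes.

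Whether the ligand effects differed between 24 h and 6 h was tested directly, and 0 of the 10 FGF genes were called by limma or edgeR for either ligand, where limma called 0.0072% of all genes for each. At an unadjusted p under 0.05, Fgfr1 was the one gene of the 10 over OP9-Jag1 and none was over OP9-Dll4, where 3.46% and 2.81% of all genes had one. The Fgfr1 effect of OP9-Jag1 was 0.56 ± 0.14 greater at 24 h than at 6 h on the log2 scale (SE, 95% confidence interval 0.25 to 0.86, unadjusted p = 0.00126), and it was called with the replicate block (adjusted p = 0.00595), where 1.31% of genes were. Without the 3 libraries numbered 2 at 6 h the block gave 0.0341. At 6 h Fgfr1 averaged 53.1 ± 4.60 over OP9-Dll4, 52.2 ± 4.14 over OP9-Jag1 and 50.8 ± 2.85 over OP9-GFP (SD, n = 3 each).

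Fgfr1 fell, and Fgf2 and Etv4 rose, at 24 h relative to 6 h over every feeder. At 24 h against 6 h Fgfr1 averaged 21.7 ± 3.23 and 53.1 ± 4.60 over OP9-Dll4, 25.6 ± 2.38 and 52.2 ± 4.14 over OP9-Jag1, and 16.6 ± 1.3 and 50.8 ± 2.85 over OP9-GFP. No 24 h library reached any 6 h library. Fgfr1 fell by 1.26 over OP9-Dll4 (log2 scale, SE 0.10, limma, adjusted p = 3.59e-06), by 1.00 over OP9-Jag1 (adjusted p = 1.74e-05) and by 1.56 over OP9-GFP (adjusted p = 3.99e-07). Without the 6 h libraries numbered 2 Fgfr1 fell by 1.19, 1.003 and 1.53 in the same order, all called. Time and seeding density changed together, and their effects cannot be told apart.

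Fgf2 averaged 29.5 ± 1.5 at 24 h and 20.4 ± 1.87 at 6 h over OP9-Dll4, 27.9 ± 2.61 and 18.9 ± 1.17 over OP9-Jag1, and 39.4 ± 3.27 and 23.4 ± 0.593 over OP9-GFP. The times did not overlap over any feeder, and Fgf2 rose by 0.51 over OP9-Dll4 (log2 scale, limma, adjusted p = 0.000918), 0.54 over OP9-Jag1 (adjusted p = 0.000714) and 0.73 over OP9-GFP (adjusted p = 6.9e-05). Without the 6 h libraries numbered 2 these were 0.45, 0.50 and 0.74, all called. Fgf5 was not called between the times over any feeder, with differences of -0.15, -0.23 and -0.08.

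Etv4 averaged 40.2 ± 2.35 at 24 h and 27.5 ± 4.33 at 6 h over OP9-Dll4, 39.2 ± 3.47 and 28.3 ± 3.39 over OP9-Jag1, and 39.1 ± 5.15 and 26.3 ± 4.04 over OP9-GFP (SD, n = 3 each). It rose by 0.54 over OP9-Dll4 (log2 scale, SE 0.13, limma, adjusted p = 0.00929), 0.46 over OP9-Jag1 (adjusted p = 0.0236) and 0.56 over OP9-GFP (adjusted p = 0.00704). The OP9-Dll4 call was lost without the second 6 h library (adjusted p = 0.055), and the OP9-Jag1 call without the second (0.119) or the third (0.0655) 6 h library or the first (0.0744) or second (0.0856) 24 h library. Etv5, Spry2, Spry4 and Dusp6 were not called between the times, and Etv5 averaged 48.5 ± 3.71 at 24 h and 41.2 ± 2.08 at 6 h over OP9-GFP (adjusted p = 0.0705).

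Spry1 was called over OP9-GFP alone, at the threshold, with 59.6, 50.8 and 50.3 at 24 h and 45.6, 46.0 and 38.5 at 6 h (0.30 ± 0.10, limma, adjusted p = 0.0468). The call held in 1 of the 6 fits that left out a library: it was lost without the second (adjusted p = 0.0642) or the third (0.176) 6 h library or the first (0.189), second (0.0701) or the third (0.057) 24 h library. Leaving out the 6 h libraries numbered 2 together over all feeders gave 0.0575. The counts between the times were 3 of 10 FGF genes over OP9-Dll4, 3 over OP9-Jag1 and 4 over OP9-GFP, where 17.4%, 14.7% and 19.2% of all genes were called.

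Of the other pathway genes, limma called none in the 4 lists over either feeder ligand at 6 h or over OP9-Dll4 at 24 h. Over OP9-Jag1 at 24 h 2 of 24 listed co-receptor genes were called, both higher, where 2.02% of all genes were called. These were Gpc6, with 3.79 ± 1.24 over OP9-Jag1 and 1.65 ± 0.274 over OP9-GFP (adjusted p = 0.0268), and Sdc1, with 110.1 ± 6.37 and 81.2 ± 9.29 (adjusted p = 0.0454). Between the times over OP9-GFP the ligand gene Fgf18 averaged 27.9 ± 5.26 at 24 h and 12.6 ± 2.71 at 6 h, and Fosl1, an AP-1 gene that ERK induces, averaged 11.7 ± 1.81 and 35.7 ± 8.26. Over OP9-GFP 2 of 24 ERK response genes were called higher and 7 lower at 24 h, and 4 of 25 transduction genes were called, all higher. With 19.2% of all genes called in that comparison, the share of transduction genes is near that of all genes.

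The 7 listed endothelial and endocardial markers summed to 76.7 to 85.8 over OP9-Dll4, 73.9 to 85.8 over OP9-Jag1 and 99.8 to 103 over OP9-GFP at 24 h. Cd34 was the one of the 7 called, lower over both ligands: it had 49.6, 41.7 and 47.6 over OP9-Dll4, 43.0, 40.7 and 44.5 over OP9-Jag1, and 69.9, 58.9 and 66.0 over OP9-GFP. Kdr and Nfatc1, neither of them called, had positive log2 differences, of 0.14 and 0.24 over OP9-Dll4 and 0.30 and 0.07 over OP9-Jag1. With the block Tek was called lower over both ligands (-0.61 and -0.52), and Flt1, another VEGF receptor gene, higher (0.70 and 0.99). The 10 listed stromal markers summed to 6586 to 8548, 7311 to 9081 and 5448 to 7996 in those groups. Of 10 cardiomyocyte markers 6 were listed, which excludes Myh6, Tnni3, Nppa and Ryr2, and 4 were called higher over OP9-Dll4 than over OP9-GFP at 24 h, with sums of 43.8 to 79.1 and 29.5 to 33.2. Over OP9-Jag1 at 24 h the sums were 21.4 to 32.9. Myh7, Actc1, Myl2 and Ttn were listed in the feeder experiment alone. Whether they reached the listing level only through the OP9-Dll4 libraries at 24 h was not tested. Of all genes, limma called 0.511% over OP9-Dll4 and 2.02% over OP9-Jag1 at 24 h. The part of these shifts in the FGF gene results was not tested.

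With γ-secretase inhibited before co-culture, Spry2 was higher. The Notch targets Hey1 (-0.70, limma, adjusted p = 0.0488), Hey2 (-0.64, 0.011), Hes1 (-0.90, 0.00294) and Nrarp (-0.82, 0.0068) were called lower, and Heyl was not listed. The Hey1 call held in 0 of the 8 fits that left out a library. Spry2 had 50.8, 52.2, 51.6 and 52.3 with RO4929097, against 38.7, 44.4, 41.6 and 43.5 with DMSO, over OP9-GFP at 6 h. All 4 RO4929097 libraries were above all 4 DMSO libraries. Spry2 rose by 0.29 ± 0.06 (log2 scale, SE, limma, adjusted p = 0.0428), the one FGF gene of 10 called, where 0.909% of the 12984 genes tested were. The call is at the threshold: leaving out any one of the 8 libraries ended it (adjusted p = 0.0651 to 0.125), and without both libraries numbered 1 the difference was 0.26 (adjusted p = 0.1).

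**Figure D4:**
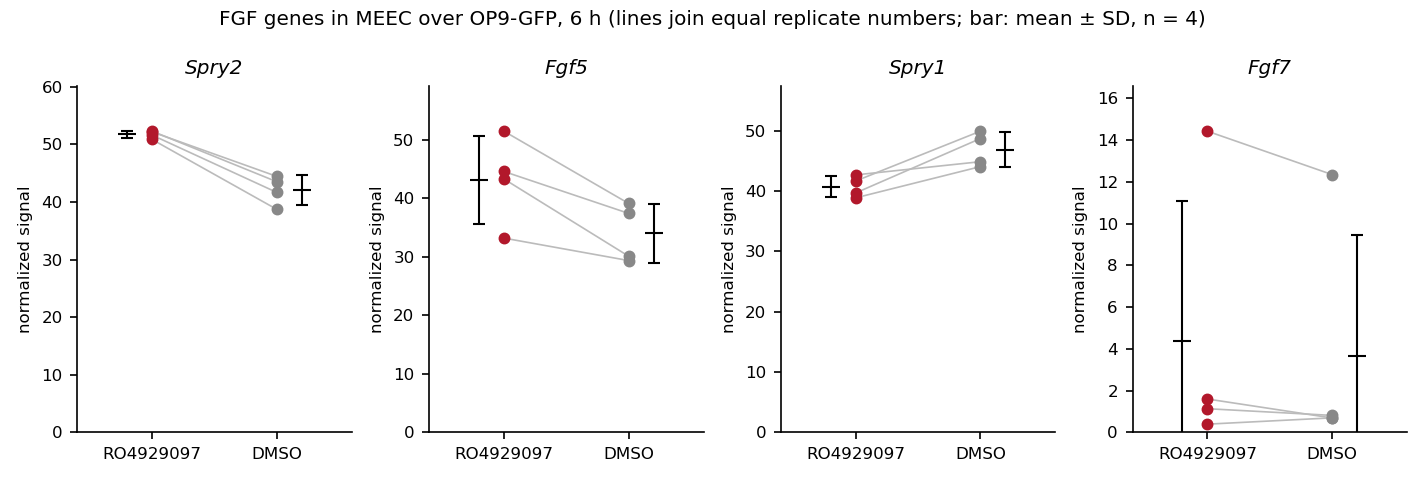
Normalized signal (y axis, linear) of 4 FGF genes over OP9-GFP at 6 h with RO4929097 or DMSO (x axis). Points are libraries, lines join equal replicate numbers, and bars are mean ± SD (n = 4), which for Fgf7 run below the axis. Spry2 is higher with RO4929097 in every library, and Fgf7 is high only in the libraries numbered 1.

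Fgf5 had 43.3, 33.2, 44.6 and 51.5 with RO4929097, against 30.1, 29.4, 37.4 and 39.1 with DMSO. It was higher with RO4929097 within each of the 4 replicate numbers although the groups overlapped, with a difference of 0.33 ± 0.13 (SE, limma, adjusted p = 0.415) that was called with the replicate block (adjusted p = 0.0301). The block count was 2 of 10 FGF genes, against 3.29% of all genes. Without both libraries numbered 1 the Fgf5 difference was 0.27, with an adjusted p of 0.631 without the block and 0.078 with it.

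Spry1 had 42.7, 38.9, 41.7 and 39.7 with RO4929097, against 44.9, 44.1, 49.9 and 48.7 with DMSO. The groups did not overlap, but the difference of -0.20 ± 0.06 was not called (limma, adjusted p = 0.225). Fgfr1 had 46.6, 45.4, 31.0 and 34.4 with RO4929097, against 52.5, 54.3, 34.9 and 41.2 with DMSO. It was lower with RO4929097 within each replicate number, although the groups overlapped, and was not called (-0.21 ± 0.16, SE, adjusted p = 0.738, and 0.0644 with the block).

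Dusp6 had 176, 202, 199.8 and 232 with RO4929097, against 192, 229, 230.4 and 235 with DMSO. It too was lower within each replicate number and not called (-0.13 ± 0.09, SE, limma, adjusted p = 0.689, and 0.21 with the block). Spry4 averaged 37.6 ± 1.86 with RO4929097 and 37.3 ± 3.03 with DMSO, Etv5 averaged 48.3 ± 2.37 and 44.7 ± 3.01 (SD, n = 4 each), and neither was called.

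Fgf2 had 26.0, 25.4, 29.8 and 24.0 with RO4929097, against 32.3, 22.5, 33.6 and 30.3 with DMSO, and was not called (adjusted p = 0.728, limma). Etv4 had 34.1, 28.5, 26.7 and 36.4, against 23.7, 33.0, 29.0 and 31.9 (adjusted p = 0.867). Of the pathway lists, Ext1 averaged 97.4 ± 1.65 with RO4929097 and 122 ± 3.91 with DMSO (adjusted p = 0.00821). Ccnd1, the cyclin D1 gene, averaged 90.7 ± 9.63 and 61.3 ± 2.40 (adjusted p = 0.0068). Each was the one gene called of its list, of 23 and of 24 genes, where 0.909% of all genes were called.

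The 6 listed endothelial and endocardial markers summed to 110.5 to 123 with RO4929097 and 97.2 to 105 with DMSO, and none was called by limma. Cd34 had 61.7, 60.7, 85.5 and 80.5 with RO4929097, against 47.7, 51.3, 61.9 and 58.7 with DMSO, and was called higher with the block (0.38, adjusted p = 0.00536). Kdr had 6.69, 11.2, 6.05 and 6.93, against 8.24, 12.3, 7.44 and 10.1, lower within each replicate number (-0.28, adjusted p = 0.684), and Flt1 was called lower with the block (-0.79, adjusted p = 0.0154). The part of these markers in the FGF gene results was not tested.

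Levels of different genes were compared per kilobase of annotated exon. In MEEC with DMSO and no feeder, Dusp6 was the most abundant at 25.3 ± 4.37 signal per kb, followed by Spry2 at 16.1 ± 4.63, Fgf5 at 11.9 ± 2.73 and Fgf2 at 9.32 ± 0.779 (SD, n = 3). Spry1 at 8.34 ± 5.62, Etv5 at 6.02 ± 2.73, Spry4 at 4.41 ± 0.492 and Etv4 at 3.67 ± 1.71 came next, and Fgfr1 was lowest at 1.66 ± 0.241. Neighbours from Spry2 down to Etv4 lay within 1 SD of each other, counting the larger SD of each pair. Spry1 rests on the third DMSO library: without it the order was the same, but Spry1 was at 5.07 and 5.13 signal per kb. In those 2 libraries Fgf2, at 9.70 and 9.84, lay above Spry1, Spry1 above Etv5, at 4.28 and 4.62, and Spry4, at 3.99 and 4.29, above Etv4, at 2.29 and 3.12.

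Over OP9-GFP at 6 h the order began with Dusp6 at 56.5 ± 4.73, Spry2 at 21.6 ± 1.97 and Spry1 at 14.9 ± 1.47 signal per kb. Etv5 at 10.03 ± 0.506, Fgf5 at 9.79 ± 0.764, Etv4 at 8.46 ± 1.3 and Spry4 at 8.17 ± 0.758 followed, and Etv5 and Fgf5, like Etv4 and Spry4, differed by less than 1 SD. Fgfr1 at 5.15 ± 0.288, Fgf2 at 3.44 ± 0.0874 and Fgf7 at 0.77 ± 0.431 ended it. At 24 h Fgf2, at 5.81 ± 0.483, stood above Fgfr1, at 1.69 ± 0.131. These are orders of annotated genes over whole exon lengths, and isoforms were not separated.

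Across the 41 libraries, with each table centred on its own mean, the genes whose log2 signal was most like that of an FGF gene included other FGF genes. Among 10649 genes the likest to Spry4 was Spry2 (Pearson r = 0.848), and the likest to Etv5 was Spry4 (r = 0.822). Fgf2 was likest to Bnc1 (r = 0.924), Spry2 to Fbxl7 (r = 0.903), Fgfr1 to Mfsd1 (r = 0.907), Etv4 to Ddx4 (r = 0.858) and Spry1 to Tgfb1i1 (r = 0.845). Dusp6 was likest to Bcar1 (r = 0.75) and Fgf5 to Tinagl1 (r = 0.677), the weakest of the 9. In the inhibitor co-cultures alone Spry4 and Spry2 had r = -0.18, against 0.903 in the recombinant experiment. The points share groups, libraries and depth, and these values describe the tables only.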

How the data were processed

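Libraries were made with NEBNext Ultra from PicoPure-extracted RNA (labels' protocols). Build GRCm38 and the tools FastQC, cutadapt, RSEM and limma, without role or version, come from the submitters' processing notes, while the strand setting of the counting is not given there. Deposited values are normalized signal, (reads + 0.5) scaled by library size as judged from the steps of low values, made by the authors as 1 table per experiment. All values came out as whole reads within 0.01.

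Each table was fitted apart with limma 3.58.1 in R 4.3.3 (trend, log2(signal + 1), 1 mean per group, Benjamini-Hochberg over the table, called at 0.05), with edgeR 4.0.16 on recovered reads (quasi-likelihood, TMM) as an alternative. A gene is tested where its table lists it, and no other filter was set. The members and lists were chosen with earlier results of these data known. Named genes are the 10 members, up to 4 called genes of smallest adjusted p per pathway list and comparison, and the likest genes by Pearson r.

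Same-numbered libraries deviated together within an experiment and time (46 pairs, correlations 0.0778 to 0.683), below 0.1 only in rDLL4+RO against rDLL4. The 9 pairs across times gave 0.0309 to 0.276, so the block there is not read as pairing. Code was tested on simulated data. Other alternatives were only the groups compared, quantile normalization, a pseudocount of 0.5, a mean signal of at least 4, each library left out, and, chosen after seeing the data, the exclusion of libraries that stood apart, with and without the block. Positions and exon lengths come from a GENCODE annotation of GRCm38. Floors of reads cover counting error only.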

Additional observations from a re-analysis of the deposited data

Results flagged for a closer look

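In the groups of 4, a library whose gap to its nearest neighbour exceeded Dixon's 95% limit was picked out, in 20 tests of a gene and group, and chance picks about 1 in 20. Fgf7 had such a library in both inhibitor co-culture groups, with a signal of 14.4 in RO4929097 library 1 (1.6, 1.14 and 0.396 in the others) and of 12.3 in DMSO library 1 (0.691, 0.814 and 0.698 in the others). The same libraries had Pdgfrb at 27.0 and 25.2, against 1.23 to 3.39 in the other 6, and Cxcl12 at 1034 and 931, against 176 to 287. All listed stromal markers summed to 5842 and 7135 in them, against 5549 to 6869 in the other 6. Their part in the Fgf7 values was not tested. By the same limit Spry4 in RO4929097 library 2 was 34.8, below 38.5, 38.4 and 38.7 in the others. Dusp6 in DMSO library 1 was 192, below 229, 230 and 235 in the others.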

How the results depend on the processing

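No called FGF gene changed direction under the alternatives run. With the replicate block, which rests on the pairing, the number of FGF genes called became 4 for OP9-Jag1 and 2 for OP9-Dll4 at 6 h, 6 and 4 at 24 h, 2 for RO4929097, 5 for rDLL4, 1 for rJAG1+RO minus DMSO, 2 for rDLL4+RO minus DMSO and 1 for the OP9-Jag1 effect at 24 h minus at 6 h. For 24 h minus 6 h over OP9-GFP, where the numbers share only a number, it was 7, with Fgf7, Spry2 and Etv5 added. There 19.2% of all genes were called without the block, and the share with it is not given here. Fitting only the groups compared gave 0 for OP9-Jag1 at 6 h, 1 for OP9-Dll4 at 24 h, 3 for rJAG1, 0 for rDLL4 and 0 for rDLL4+RO minus DMSO, with fewer samples behind the spread. The number of all genes called also moved, in 17 of 20 comparisons with the block and in 11 with only the groups compared, counting a ratio of 1.5 as moved. By the same ratio the FGF gene counts moved in 10 comparisons with the block and in 5 with only the groups compared. A ratio of such small counts is not like a ratio of counts over all genes. Whether the shifts are particular to the FGF genes was not tested. Quantile normalization and edgeR each gave 0 for OP9-Dll4 at 24 h, against 2 in the report. Leaving out the 6 h libraries numbered 2 gave 0 for OP9-Jag1 at 6 h, and leaving out both libraries numbered 1 gave 0 for RO4929097. With the replicate block and those 6 h libraries left out, counts were 3 for OP9-Jag1 at 6 h and 1 for its effect at 24 h minus at 6 h. With the block and the third DMSO library left out they were 6 for rDLL4, 1 for rJAG1+RO minus DMSO and 2 for rDLL4+RO minus DMSO. The shares of all genes called are not given for fits with libraries left out or with only the groups compared. Those counts therefore cannot be set beside a background. The causes of the shifts in count were not tested.

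With 1 library left out, counts ran from 4 to 6 for rJAG1, 0 to 3 for rDLL4, 3 to 4 for rJAG1+RO minus rJAG1, 2 to 3 for rDLL4+RO minus rDLL4, 0 to 1 for each RO group minus DMSO, 3 to 3 for OP9-Jag1 and 0 to 0 for OP9-Dll4 at 24 h, 0 to 0 for OP9-Jag1 at 6 h and for RO4929097, and 2 to 3, 2 to 3 and 3 to 4 for 24 h minus 6 h over OP9-Dll4, OP9-Jag1 and OP9-GFP. Shares of all genes called with 1 library left out are not given here. A pseudocount of 0.5 and a mean signal of at least 4 moved no call of a single FGF gene. Depth limits Fgf7 most, which had 2 to 64 reads per feeder library.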
